A study of Mus musculus with 6 samples.

Results

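N6-methyladenosine (m6A) is a methyl mark on adenosines inside messenger RNA. It is placed in the nucleus by a writer complex in which METTL3 is the catalytic subunit and METTL14 its RNA-binding partner. WTAP, VIRMA, RBM15, CBLL1 and ZC3H13 hold the complex together, keep it in the nucleus or direct it to transcripts. FTO and ALKBH5 are demethylases, called erasers, and YTH-domain proteins are readers that bind the mark. In melanoma FTO has been studied as a gene that favours tumour growth.

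Described here are 10 genes of 18324 in the count table: the writer genes *Zc3h13*, *Mettl3*, *Mettl14*, *Wtap*, *Rbm15* and *Cbll1*, the eraser genes *Alkbh5* and *Fto*, and the reader genes *Ythdf2* and *Ythdc1*. They were chosen by name and function, and *Zc3h13* because it had been seen lower in high-pigmented cells of these same libraries. The difference of *Zc3h13* between the groups is therefore given as a description, with no test. Genes were found by mouse symbol, because the human symbol beside a row can belong to another gene, as for *Cbll1*, listed beside ZNF645. All 10 passed the filter on low counts.

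The cells were B16-F10, an established mouse melanoma line in which pigmentation varies from cell to cell, kept in culture with no treatment named. Flow sorting on the light scatter of melanin gave high-pigmented cells (HPC) and low-pigmented cells (LPC). Each group had 3 libraries, made from total RNA by 3′-end mRNA sequencing, and no other treatment or genotype separates them. A suffix shared by the titles joins the libraries into pairs 1, 2 and 3, each with 1 HPC and 1 LPC library. Nothing in the labels says that the replicates came from separate cultures, so p values measure the spread between these libraries, which may be technical. In such bulk RNA, fewer cells carrying a transcript and less of it per cell cannot be told apart.

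Gene counts totalled 3819605 to 7311131 per library. Pair 2 stood apart in both groups. A single row, RP23-81C12.3, made up 53.9% of the gene counts of HPC and 27.1% of those of LPC there, against 3.54% to 5.03% elsewhere. Mitochondrial rRNA made up a further 12.2% and 7.69%, against 1.51% to 1.99% elsewhere. At an equal total of 3819605 gene counts these libraries held 10620 and 12667 genes, against 13849 to 14836 elsewhere, with the depth left for all other genes unequal because of those rows. The 6 melanocyte-lineage markers were all measured and summed to between 4442 and 20701 CPM (normalised counts, scaled to a common library size) in HPC and 6184 to 17279 CPM in LPC libraries, lowest in pair 2 of each. Of markers of other cells, 2 of 5 leukocyte, 1 of 3 endothelial, 3 of 4 fibroblast and 0 of 3 keratinocyte genes had a row. Their sums in HPC libraries reached 26.8, 11.6 and 33.2 CPM for leukocyte, endothelial and fibroblast genes, each highest in pair 2, and at most 3.31, 0 and 5.29 CPM in LPC libraries. Their part in the results below was not tested, and each result is given by pair.

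*Zc3h13* encodes a large zinc finger protein that anchors the writer complex in the nucleus. The gene lies on the plus strand at chr14:75284373-75344426 (GRCm38) and has 19 exons in the transcript used here. Its normalised counts were 25.4, 25.6 and 39.2 CPM in the HPC libraries of pairs 1, 2 and 3, and 44.0, 201.5 and 57.6 CPM in the LPC ones. All 3 HPC values lay below all 3 LPC ones, an arrangement in this direction that 375 of 11324 tested genes had (3.31%). The value that stood apart was the LPC library of pair 2, with 705 raw counts against 266 and 549 in the LPC libraries of pairs 1 and 3. The fitted log2 fold change was -1.74 ± 0.63 (SE) over all 6 libraries and -0.68 ± 0.20 (SE) with pair 2 left out and the pairs as a block. Without the LPC library of pair 2 alone it was -0.76. Within pairs 1, 2 and 3 the log2 differences were -0.78, -2.96 and -0.55, so the direction was shared and the size was not.

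*Ythdc1*, whose product reads m6A in the nucleus and acts in splicing and export, had the profile nearest to that of *Zc3h13* among the 10 genes. Its values were 68.2, 78.0 and 91.5 CPM in HPC and 88.7, 318.5 and 115.2 CPM in LPC libraries of pairs 1, 2 and 3. The groups overlapped, because the LPC value of pair 1 lay under the HPC value of pair 3, while within each pair the HPC library was the lower one. The log2 differences were -0.38, -2.03 and -0.33. The fitted change of -1.13 ± 0.54 (SE) did not pass (adjusted p 0.9996, from edgeR's quasi-likelihood test over all genes). Blocked on the pairs and fitted to pairs 1 and 3 alone, the change was -0.37 ± 0.16 (adjusted p 0.344 in edgeR), and without only the LPC library of pair 2 it was -0.37 too. Apart from *Zc3h13*, chosen for its lower level in HPC, only *Ythdc1* of the 10 genes was lower in the HPC library of every pair. Among all tested genes 17.2% had this pattern.

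**Figure D1:**
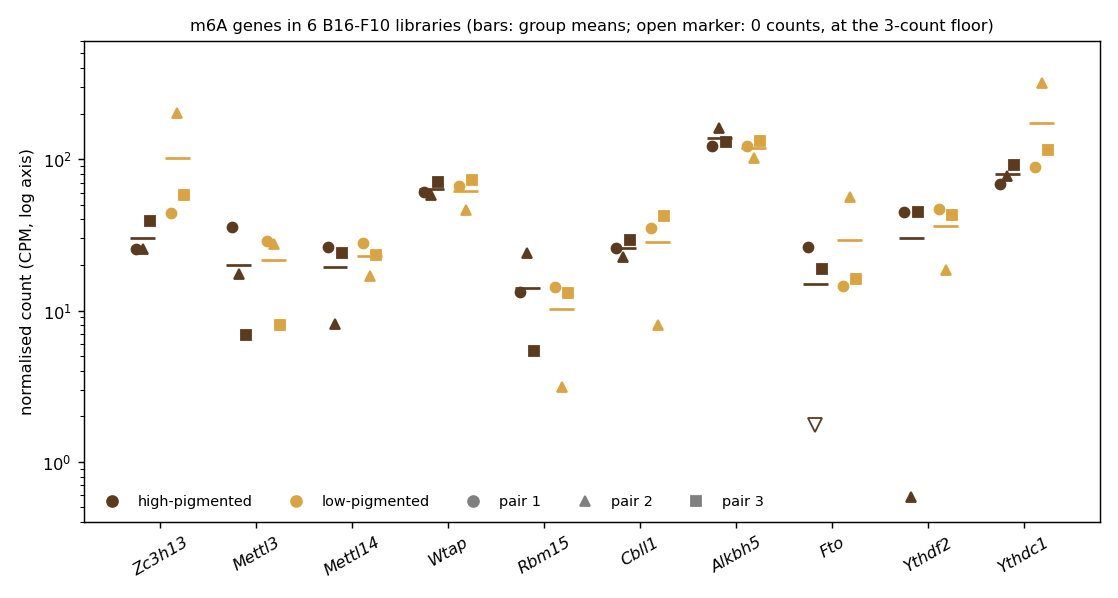
Normalised counts (CPM, log axis) of the 10 genes in each library, with colour for the pigment group, marker shape for the pair and a bar for each group mean. The LPC library of pair 2 lies above the other 5 for *Zc3h13* (201.5 CPM), *Ythdc1* (318.5 CPM) and *Fto* (56.6 CPM), and the open marker stands for 0 counts, drawn at the level of 3 counts.

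Likeness to *Zc3h13* was measured as the root-mean-square difference of log2 CPM over the 6 libraries, after centring each gene on its own mean, among 7781 other genes averaging at least 10 CPM. The nearest were *Ddx46* (0.17), a splicing helicase gene, *Cwf19l2* (0.19), *Cep95* (0.22), *Pelp1* (0.23) and *Mll3* (0.24), against a median of 1.21 over these genes. *Ythdc1* ranked 10 with 0.30, and the next of the m6A genes was *Mettl14* at rank 3290 with 1.14. All these close profiles shared the high value in the LPC library of pair 2, where *Ddx46* had 382 CPM against 73.4 and 96.8 CPM in the LPC libraries of pairs 1 and 3. The likeness is a description over 6 libraries that share their depths and composition.

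The transcripts of *Zc3h13* and *Ythdc1* share a feature of sequence that was looked at after their values were seen. Libraries of this type are primed with oligo-dT, which pairs with runs of adenines, so the most adenines in any 20 nucleotides of coding sequence were counted in 1 GENCODE vM21 transcript per gene. Both genes had 15, and 7.51% of 9705 tested genes with such a transcript had as many or more. *Mettl14* had 14, *Wtap*, *Rbm15*, *Cbll1*, *Alkbh5* and *Ythdf2* had 13, *Mettl3* had 12 and *Fto* 11. The stretches of the 2 highest and the 2 lowest genes are shown in the sense direction, 5′ to 3′, with the 20-nucleotide window in capitals.
Zc3h13: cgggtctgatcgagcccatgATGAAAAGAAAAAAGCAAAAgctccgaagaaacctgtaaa
Ythdc1: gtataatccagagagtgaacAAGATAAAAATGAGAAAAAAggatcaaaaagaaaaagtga
Mettl3: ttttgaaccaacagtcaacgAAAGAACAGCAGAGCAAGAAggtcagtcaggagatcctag
Fto: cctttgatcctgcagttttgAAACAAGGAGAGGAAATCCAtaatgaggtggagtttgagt
The windows are coding and lie within exon 14 of *Zc3h13* (chr14:75330363-75330382, plus strand), exon 2 of *Ythdc1* (chr5:86815710-86815729, plus), exon 3 of *Mettl3* (chr14:52299702-52299721, minus) and exon 6 of *Fto* (chr8:91474426-91474445, plus), all in GRCm38. The flanks of *Ythdc1*, *Mettl3* and *Fto* run across an exon junction.

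Across genes, the level in the libraries of pair 2 differed with the adenines in this window, from 13 adenines upward. In LPC, log2 CPM of pair 2 minus the mean of the other 2 libraries had medians of -0.33, -0.34, -0.42 and -0.41 for genes with at most 9, 10, 11 and 12 adenines. It was -0.17 with 13, 0.11 over 1115 genes with 14, 0.64 over 513 genes with 15 and 0.99 over 216 genes with 16 or more. In HPC the same difference had medians of -0.59 for genes with at most 13, -0.22 with 14, -0.03 with 15 and 0.02 with 16 or more. In LPC, *Zc3h13* and *Ythdc1*, at 1.99 and 1.65, lay above the upper quartile (1.47) of the genes with 15, of which 13.3% and 20.5% were higher still. For *Zc3h13* this place is a description, because the LPC value of pair 2 is part of the difference by which it was chosen. The HPC minus LPC difference within pair 2 had a median of -0.07 for genes with at most 13 and -0.72 for genes with 15, of which 69.0% were lower in the HPC library. Within pairs 1 and 3 the genes with 15 had medians of -0.01 and -0.08, and those with at most 13 had 0.026 and 0.032. With 16 or more the medians of these pairs were -0.03 and -0.11, the same direction as in pair 2 at a smaller size. In the LPC library of pair 2 *Fto*, with 11, differed by 1.86, *Mettl3*, with 12, by 0.83 and *Mettl14*, with 14, by -0.59. The m6A genes with 13 lay between -2.22 (*Cbll1*) and -0.31 (*Alkbh5*). Genes are not independent replicates, read positions were not analysed here, and the part of adenine content in these differences was not tested.

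**Figure D2:**
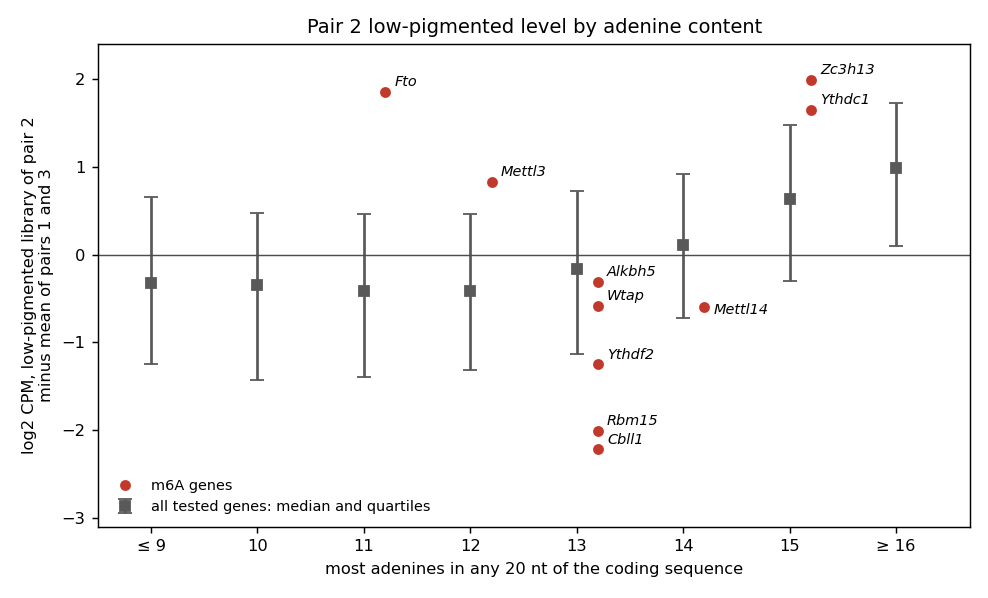
Log2 CPM in the LPC library of pair 2 minus the mean of the LPC libraries of pairs 1 and 3, against the most adenines in any 20 nucleotides of coding sequence. Squares are medians of all tested genes with a transcript and bars their quartiles, between -0.42 and -0.33 up to 12 adenines, then rising to 0.99 at 16 or more, and red points are the 10 m6A genes, with *Zc3h13* and *Ythdc1* at 15.

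The values of the catalytic gene *Mettl3* were set apart by pair. Its values were 35.6, 17.5 and 6.90 CPM in HPC and 28.9, 27.4 and 7.98 CPM in LPC libraries of pairs 1, 2 and 3, from raw counts of 219, 30 and 59, and 175, 96 and 76. Both libraries of pair 3 lay under all the others, although they were the deepest. Between pigment groups the fitted log2 fold change was -0.10 ± 0.77 (SE; adjusted p 0.9996 in edgeR), and the within-pair differences of 0.30, -0.64 and -0.20 had no common direction.

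The difference between pairs was tested after these values were seen, with the 4 libraries of pairs 1 and 3 and the pigment group as a covariate. The p values of this comparison, here and below, rest on how alike the HPC and LPC libraries of a pair were. They do not measure the spread between pairs. *Mettl3* fell from pair 1 to pair 3, with a log2 fold change of -2.11 ± 0.29 (SE), or 4.31-fold (adjusted p 3.86e-06, edgeR), and it was lower in pair 3 within both HPC and LPC. In this comparison 3035 of 11906 genes passed (25.5%), so 1 of the 10 m6A genes passing is below the background share. With all 6 libraries in the fit the change was -2.13 but did not pass (adjusted p 0.3003), where 0 of 11324 genes passed in edgeR, with 948 under 0.05 before adjustment. The labels do not say what the pairs mark. *Mettl3* shares 254 nucleotides of exon with *Tox4* on the opposite strand of chromosome 14, and the strand setting of the counting is not given in the sources used here. *Tox4* itself had 32.4, 20.4 and 34.0 CPM in HPC and 27.9, 32.0 and 28.7 CPM in LPC libraries, a change of 0.05 from pair 1 to pair 3 (adjusted p 0.893 in edgeR).

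The other 9 genes did not pass between pairs 3 and 1. The nearest were *Ythdc1* at 0.40 ± 0.16 and *Zc3h13* at 0.50 ± 0.20 (log2 ± SE), each with an adjusted p of 0.0718 or 0.0720 in edgeR. *Rbm15* had -0.68 ± 0.38, and the remaining 6 lay between -0.21 and 0.21.

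**Figure D3:**
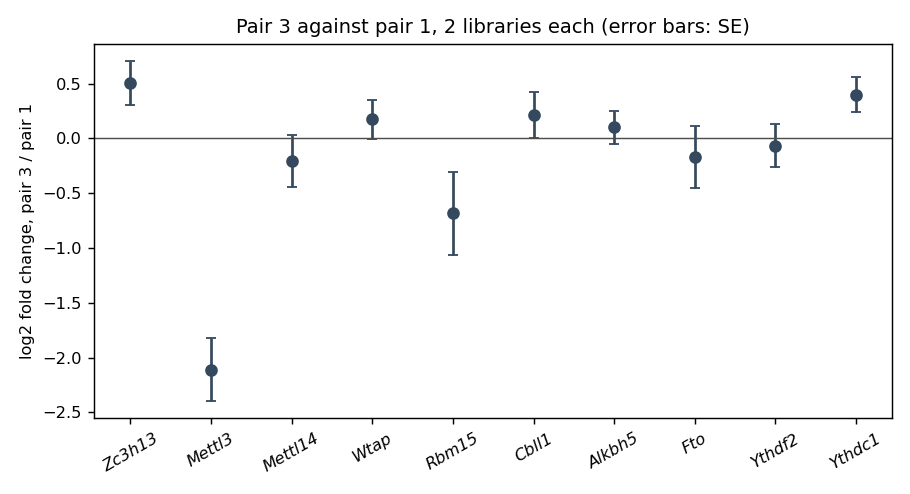
Log2 fold change of pair 3 over pair 1 for the 10 genes, fitted on 2 libraries of each pair, with bars for the standard error. *Mettl3* lies at -2.11, and the other 9 genes lie between -0.68 and 0.50.

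*Mettl14* and *Wtap*, whose products are partners of METTL3 in the writer complex, varied little outside pair 2. *Mettl14* had 26.4, 8.15 and 23.9 CPM in HPC and 28.1, 16.9 and 23.3 CPM in LPC libraries of pairs 1, 2 and 3. Its 2 lowest values were those of pair 2, and over the 4 libraries of pairs 1 and 3 its coefficient of variation was 8.80%. *Wtap* had 60.4, 58.2 and 70.6 CPM against 66.6, 46.3 and 72.3 CPM, the same order of libraries in both groups. Their fitted log2 fold changes were -0.22 ± 0.60 and 0.03 ± 0.37 (SE), and neither passed (adjusted p 0.9996 each, edgeR). *Wtap* shares up to 674 nucleotides with 3 other genes, of which the 1 with a row had at most 1 count.

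*Rbm15*, which guides the writer complex to RNA, and *Cbll1*, the gene of the ubiquitin ligase Hakai in the complex, had differences of one sign in pair 2 and of the other sign in pairs 1 and 3. *Rbm15* had 13.3, 23.9 and 5.38 CPM in HPC and 14.2, 3.14 and 13.1 CPM in LPC libraries. Its within-pair log2 differences were -0.09, 2.80 and -1.24, and the LPC value of pair 2 came from 11 raw counts. *Cbll1* had 26.0, 22.7 and 29.2 CPM against 35.2, 8.00 and 42.1 CPM, so it was lower in HPC in pairs 1 and 3 (-0.43 and -0.52) and higher in pair 2 (1.47). The fitted changes of 0.46 ± 0.86 and -0.13 ± 0.63 (log2 ± SE) did not pass (adjusted p 0.9996 each, edgeR). With pair 2 left out and the pairs as a block they were -0.69 (adjusted p 0.499) and -0.49 (adjusted p 0.326, edgeR).

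Of the eraser genes, *Alkbh5* had 123, 160.1 and 131 CPM in HPC and 121, 102 and 131 CPM in LPC libraries of pairs 1, 2 and 3. Outside pair 2 its coefficient of variation was 4.07% over 4 libraries, and the within-pair log2 differences of 0.02 and -0.01 in pairs 1 and 3 were close to 0. The fitted change of 0.22 ± 0.35 (SE) did not pass (adjusted p 0.9996, edgeR) and was -0.01 with scaling to library totals.

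*Fto* had 26.4, 0 and 18.8 CPM in HPC and 14.5, 56.6 and 16.3 CPM in LPC libraries. The gap was in pair 2, with 0 raw counts in the HPC and 198 in the LPC library. A count of 0 allows up to 3 counts, or 1.75 CPM there, so the LPC library was at least 32.4-fold higher, counting error alone considered. In pairs 1 and 3 *Fto* was higher in the HPC library, by 0.84 and 0.21 on the log2 scale. The fitted change was -0.92 ± 1.18 (SE) over 6 libraries and 0.51 with pair 2 left out and the pairs as a block, and neither passed (adjusted p 0.9996 and 0.496, edgeR).

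*Ythdf2*, whose product brings methylated transcripts to decay, had the lowest coefficient of variation of the 10 genes outside pair 2. It had 45.1, 0.582 and 44.8 CPM in HPC and 46.6, 18.6 and 42.8 CPM in LPC libraries; this coefficient was 3.46% over the 4 libraries of pairs 1 and 3. In pair 2 it had 1 raw count in the HPC and 65 in the LPC library, a ratio of 31.9 with an exact 95% interval from 5.53 to 1280 that covers counting error only. Its fitted change was -0.24 ± 1.03 (SE; adjusted p 0.9996, edgeR). *Ythdf2* shares up to 1840 nucleotides with *Gm6823* and *Gm8401*, which had at most 5 and 12 counts in any library. *Ythdc1*, *Cbll1* and *Fto* share up to 635, 576 and 149 nucleotides with 1 further annotated gene each, and how reads there were counted is not given in the sources used here.

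**Figure D4:**
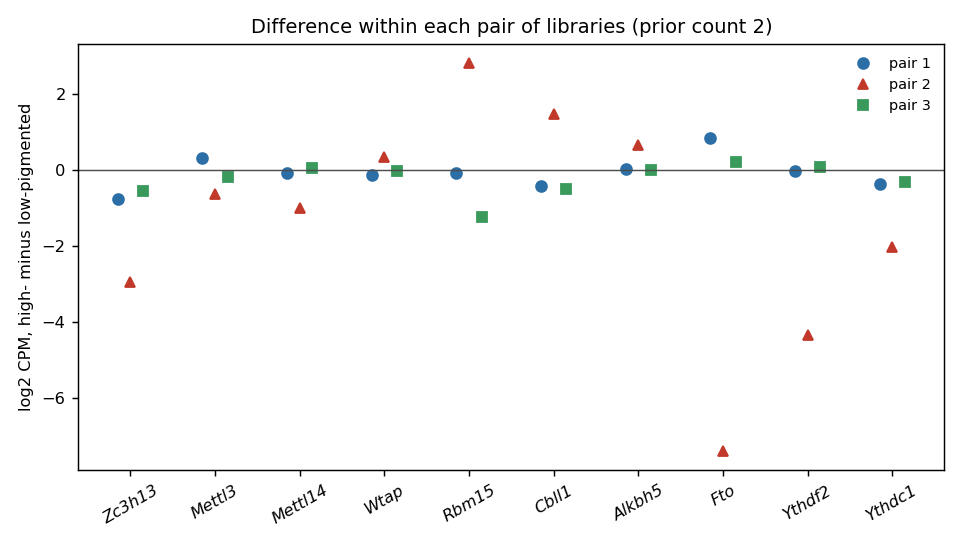
Log2 CPM of the HPC minus the LPC library within each pair, with a prior count of 2, for the 10 genes. Pair 2 gives the point farthest from 0 for every gene, and in pairs 1 and 3 *Zc3h13*, *Cbll1* and *Ythdc1* lie below -0.3 in both; the *Fto* point of pair 2 rests on 0 counts and its height depends on the prior count.

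Between the pigment groups, 0 of the 9 genes other than *Zc3h13* passed, as did 0 of all 11324 genes tested (0%), where 38 had an unadjusted p under 0.05 in edgeR. With pair 2 left out and the pairs as a block, 155 of 11906 genes passed (1.3%) and again 0 of the 9. The standard errors of the 9 lay between 0.35 and 1.18 on the log2 scale, and a change that missed the threshold is not shown to be absent. The median log2 fold change of these 9 genes was -0.13, and 6 of 9 were negative, beside a median of -0.04 and 53.0% negative over all tested genes. Within pairs 1, 2 and 3 the median log2 differences of these 9 genes were -0.09 (*Rbm15*), -0.64 (*Mettl3*) and -0.03 (*Wtap*). The medians over all genes were 0.02, -0.20 and -0.002.

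Other genes of the pathway were taken as lists. Of the other writer and methyltransferase genes (VIRMA, listed as *1110037F02Rik*, *Rbm15b*, *Mettl16*, *Mettl5*, *Trmt112*, *Zcchc4*, *Pcif1* and *Mettl4*), 7 of 8 were tested and 0 passed in edgeR in either direction, with a median log2 fold change of -0.17. VIRMA, the scaffold of the complex, had 41.2, 21.5 and 25.1 CPM in HPC and 37.0, 66.6 and 33.0 CPM in LPC libraries of pairs 1, 2 and 3. Its highest value was thus the LPC library of pair 2.

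Of 14 other readers 0 passed in edgeR, with a median of -0.20. The HPC values lay below the LPC ones in 2 of them, *Ythdf1* and *Ythdc2*, and above in 0, where 5.74% of all tested genes were apart in either direction. *Ythdf1*, a cytoplasmic reader linked to translation, had 63.6, 36.7 and 48.5 CPM in HPC and 76.0, 72.0 and 69.3 CPM in LPC libraries, and its fitted change was -0.54 ± 0.37 (log2 ± SE; adjusted p 0.9996, edgeR). *Ythdc2*, a helicase with a YTH domain, had 4.88, 0 and 4.56 CPM against 6.61, 14.3 and 7.45 CPM, with 0 counts in the HPC library of pair 2.

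Genes that supply the methyl donor S-adenosylmethionine or clear its by-product numbered 8, and 0 passed in edgeR, with a median of 0.16. *Mat2a*, the S-adenosylmethionine synthetase gene whose transcript is itself methylated, had 367, 183 and 248 CPM in HPC and 251, 132 and 289.8 CPM in LPC libraries, with pair 3 in the other direction. Of 14 genes of the decay machinery that YTHDF2 recruits, 0 passed in edgeR, with a median of 0.03, and of 15 other Zc3h zinc finger genes 0 passed, with a median of -0.28. In that family 6 of 15 genes were highest in the LPC library of pair 2, as were 23.9% of all tested genes. Of the m6A genes *Ythdc1* and *Fto* were too, besides *Zc3h13*, which was chosen for its lower level in HPC. The 6 were *Zc3h15* (497.7 CPM), *Zc3h7a* (78.6 CPM), *Zc3h6* (61.7 CPM), *Zc3h8* (52.0 CPM), and *Zc3h3* and *Zc3h12a* (12.6 CPM each), with 15, 14, 16, 16, 13 and 12 adenines in their richest windows. The rest of the family had 10 (*Zc3h10*), 11 (*Zc3h4*, *Zc3hc1*), 12 (*Zc3h7b*, *Zc3h14*, *Zc3h18*), 13 (*Zc3h12c*) or 14 (*Zc3h11a*, *Zc3hav1*). *Zc3h7a* was nearly as high in pair 1, at 78.3 CPM in HPC and 78.2 CPM in LPC. *Zc3h6* was high in the HPC library of pair 2 too, at 54.7 CPM. This count was made after their values were seen. Of 3 transcripts reported as regulated by FTO in melanoma, *Sox10* alone had a row, at 0.10 ± 0.53 (log2 fold change ± SE; adjusted p 0.9996, edgeR).

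**Figure D5:**
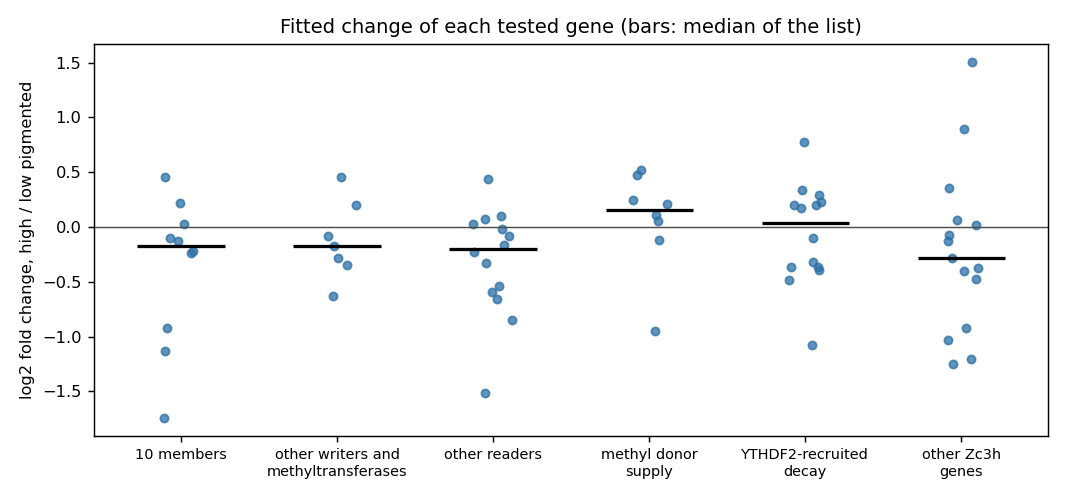
Fitted log2 fold change of HPC over LPC for each tested gene, 1 point per gene, by list, with a bar for the median. The medians lie between -0.28 for other Zc3h genes and 0.16 for methyl donor supply. The lowest point is *Zc3h13* at -1.74, which enters the median of the 10 members.

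Between pairs 3 and 1, the lists held genes that passed in edgeR, read against 25.5% of all genes. They were 1 of 7 other writer genes (*Rbm15b*, -0.93), 3 of 14 readers (*Igf2bp2*, -0.997, *Elavl1*, -0.63, and *Hnrnpa2b1*, -0.49, on the log2 scale), 4 of 8 methyl donor genes, 2 of 14 decay genes, 1 of 15 other Zc3h genes (*Zc3h7b*, 0.55) and 4 of 6 melanocyte-lineage markers. The last were all higher in pair 3 (*Mitf*, 1.24, *Dct*, 0.88, *Pmel*, 0.68, and *Sox10*, 0.47), the pair in which *Mettl3* was low, and their part in the *Mettl3* difference was not tested. Of the decay genes *Pop1*, of the RNase P and MRP complexes, fell by 2.61 and *Hrsp12*, which links YTHDF2 to them, rose by 0.80. Of the methyl donor genes, *Mtr*, the methionine synthase gene, fell by 1.99, *Shmt2* by 0.81 and *Ahcyl1* by 0.64, and *Mat2b* rose by 0.77. Like *Mettl3*, *Mtr* was lower in both libraries of pair 3, at 8.18 and 7.03 CPM, than in pair 1, at 24.1 and 37.5 CPM. Unlike *Mettl3*, its lowest value was in pair 2, with 1.16 CPM in HPC, from 2 counts, and 21.4 CPM in LPC.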

How the data were processed

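The authors deposited whole-number counts per gene for 6 libraries, made with HTSeq, as the deposited table's name and tally rows show. STAR and GRCm38 are named in the submitters' processing notes, while versions, annotation and strand setting are not given in the sources used here. Tally rows (no feature, 12.4% to 29.5% of tallied reads, and ambiguous, 0.487% to 2.51%) were left out.

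All 18324 gene rows were filtered with filterByExpr (minimum count 10), scaled by TMM and tested with edgeR 4.0.16 (quasi-likelihood, robust) in R 4.3.3, with no block, adjusting over all 11324 genes tested by the Benjamini-Hochberg method. Standard errors come from the test statistic. Log2 CPM used a prior count of 2. The suffix in the titles was taken to pair the libraries. Same-suffix libraries deviated together from their group means (correlations across genes of 0.466, 0.316 and 0.422). Libraries of different suffix were not correlated, and pair 2 stood apart in both groups, which can raise all of these values. They therefore cannot show the pairing by themselves. Replicates of a group differed by far more than sampling noise (a chi-square over its degrees of freedom from 61.8 upward), so each counted once. Fits were tested on simulated counts.

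Alternatives used DESeq2 1.42.0, limma 3.58.1 (voom), other scalings, no filter, the pair block and left-out libraries. Shared sequence means at least 100 nucleotides at 95% identity in blastn 2.17.0 against GENCODE vM21 transcripts. Members, lists and tests were chosen with earlier results of these data known; the comparison of pairs 3 and 1 and the adenine windows were chosen after the values were seen. Named by rule are all members, list genes that passed or did not overlap between groups, and the 5 nearest to *Zc3h13*. Named outside this rule are the other writer genes with VIRMA, *Mat2a*, the other Zc3h genes and genes that share sequence with members. The values of 1 list gene are not reported here. Figures used matplotlib 3.10.9.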

Additional observations from a re-analysis of the deposited data

How the results depend on the processing

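The count of genes passing between pigment groups was 0 in each fit but those with 34 genes (limma-voom with sample weights and the replicate block) and 155 genes (edgeR without pair 2 and with the replicate block). It was 0 in edgeR with the replicate block on all 6 libraries (213 genes at an unadjusted p under 0.05), and 0 to 0 when each library was left out. None of the 9 tested members passed in any of these. *Ythdc1* kept its direction in all 16 alternatives, from -1.44 to -0.36 on the log2 scale. *Zc3h13* ranged from -2.09 to -0.66, which is a description only, as the gene was chosen for its lower level in HPC.

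The other members changed direction somewhere, and the causes were not tested. In limma-voom with sample weights and the replicate block, *Mettl3* was 0.16, *Wtap* -0.072, *Rbm15* -0.49 and *Fto* 0.45. Without pair 2 and without or with the replicate block, *Mettl3* was 0.19 or 0.063, *Wtap* -0.10 or -0.10, *Rbm15* -0.56 or -0.69, *Alkbh5* -0.0051 or -0.0049 and *Fto* 0.54 or 0.51. With library totals, *Wtap* was -0.13, *Rbm15* -0.12 and *Alkbh5* -0.010. *Rbm15* was -0.23 in limma-voom with equal weights, and *Cbll1* was 0.12 in edgeR with the replicate block. Leaving out each library in turn gave -0.85 to 0.32 for *Mettl3*, -0.49 to 0.14 for *Mettl14*, -0.14 to 0.16 for *Wtap*, -0.13 to 0.84 for *Rbm15*, -0.57 to 0.27 for *Cbll1* and -0.63 to 0.32 for *Ythdf2*. Scaling to library totals moved the pair 2 differences of *Mettl3* (-1.31), *Mettl14* (-1.65), *Wtap* (-0.37) and *Alkbh5* (-0.048) by more than their spread over pairs. Between pairs 3 and 1, 3035 genes passed, and 0 with all 6 libraries, where *Mettl3* was -2.13.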
